A study of Homo sapiens with 10 samples.

Results

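AP-1 and immediate early factors were followed across a knockdown experiment in VCaP, a cell line from a human prostate cancer that carries the *TMPRSS2-ERG* fusion. They are 10 of the 59386 genes in the count tables, taken by gene symbol: the FOS family (*FOS*, *FOSB*, *FOSL1* and *FOSL2*), the JUN family (*JUN*, *JUNB* and *JUND*), the zinc finger factors *EGR1* and *EGR2*, and *IER2*. Of these, 9 passed the expression filter that left 16899 genes for testing, and *EGR2* did not. RNA was measured 72 h after a lipid transfection. *SMARCA4*, the ATPase of SWI/SNF chromatin remodelling complexes, was targeted with siRNA A or siRNA B, and *SMARCA1*, an ATPase of ISWI complexes, with siRNA A or siRNA C, each at 30 pmol. Each of these 4 siRNAs has 2 libraries and the control has 2, which makes 4 *SMARCA4* knockdown, 4 *SMARCA1* knockdown and 2 control libraries of the same parental line. The siRNA and dose given to the control cells are not named in the sources used here, and no source says whether the libraries of a group came from separate cultures, so p-values measure the spread between these libraries, which may be technical.

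FOS proteins pair with JUN proteins through a leucine zipper to form AP-1, a dimer that binds the DNA letters TGACTCA, which read TGAGTCA from the other strand. JUN proteins can also pair with each other, whereas FOS proteins need a partner. Genes such as *FOS*, *EGR1* and *IER2* are called immediate early because growth factors, cytokines and stress switch them on within minutes through kinases that act on factors already present, among them SRF and its cofactors at CArG boxes and CREB or ATF factors at cAMP response elements. Their messages usually decay quickly, and phosphatases and corepressors made in response shut the signal down.

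Between 23898545 and 34667965 counts were assigned per library, and the upper limit that 0 counts leave, taken as 3 counts, was 0.0865 to 0.126 CPM (counts scaled to 1000000 per library). From here on CPM values are scaled by TMM factors, which lay between 0.963 and 1.03. *SMARCA4* was at 242 and 268 CPM in the controls and between 13.3 and 25.2 CPM in its own knockdown, and *SMARCA1* at 32.3 and 31.5 CPM in the controls and between 1.75 and 3.40 CPM in its own knockdown. All 12 prostate epithelial markers, such as *KLK3*, were at 1 CPM or more in every library. Of the immune markers, *PTPRC* and *CD3E* reached at most 0.0309 CPM. *CD14*, from the same list, ranged from 0.559 to 1.82 CPM and *LYZ* from 0.520 to 22.5 CPM, with control means of 1.68 and 0.657 CPM. The summed list was at 2.34 CPM in both controls, at 2.35 to 16.0 CPM in the *SMARCA4* libraries and at 9.10 to 23.7 CPM in the *SMARCA1* libraries. Interferon response genes moved with both knockdowns: all 22 on a fixed list were called higher in each. Of all genes tested, 22.8% were called higher in *SMARCA4* knockdown and 23.8% in *SMARCA1* knockdown. *DDX58*, 1 of the 22, passed the expression filter without both control libraries, and the other 21 were called higher too. The 22 took 0.0293% and 0.0301% of counts in the controls, 1.61% to 4.19% in the *SMARCA4* libraries and 2.26% to 4.16% in the *SMARCA1* libraries. The part of this response in the values of the AP-1 genes was not tested. In these bulk samples, fewer cells of a type and less RNA per cell cannot be told apart.

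The stretches before 4 start sites are shown because these genes bracket the results: *EGR1* and *FOSL2* had the largest fold changes in both knockdowns, *FOS* is the classical target of SRF and CREB, and *JUN* differed between the knockdowns. Each is 150 bases that end 1 base before the RefSeq start, written 5′ to 3′ on the gene's strand, with motif matches in capitals (GRCh38.p14).
*EGR1*, chr5:138465329-138465478, plus strand: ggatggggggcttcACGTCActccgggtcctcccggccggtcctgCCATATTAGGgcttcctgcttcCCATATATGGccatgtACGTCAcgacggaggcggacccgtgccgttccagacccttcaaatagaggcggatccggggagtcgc
*FOSL2*, chr2:28392708-28392857, plus strand: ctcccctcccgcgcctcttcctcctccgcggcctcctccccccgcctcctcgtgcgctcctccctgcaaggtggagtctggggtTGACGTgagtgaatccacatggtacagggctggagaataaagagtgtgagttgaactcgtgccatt
*FOS*, chr14:75278678-75278827, plus strand: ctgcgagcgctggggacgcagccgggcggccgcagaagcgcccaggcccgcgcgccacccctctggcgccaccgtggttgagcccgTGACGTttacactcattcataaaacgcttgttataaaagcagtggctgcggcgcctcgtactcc
*JUN*, chr1:58784048-58784197, minus strand: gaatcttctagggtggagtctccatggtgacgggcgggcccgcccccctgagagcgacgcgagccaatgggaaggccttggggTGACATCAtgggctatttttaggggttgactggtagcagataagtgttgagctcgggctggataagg

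Matches were searched on both strands of RefSeq windows that run from 250 bases before a start and hold 50 bases from it on, with the start base counted as 0. The core of the cAMP response element, TGACGT, which reads ACGTCA from the other strand, lay in windows of 6 of the 9 genes with RefSeq windows. These 9 are all members but *FOSL1*, and *EGR2* has 3 windows. The core was in 7.98% of all 35116 windows, a share of single windows and not of genes. It sat at a like distance in 3 genes of the FOS family, at bases -64 to -59 in *FOS*, -60 to -55 in *FOSB* and -66 to -61 in *FOSL2*. This position was not particular to that family. *EGR1* held the core at bases -67 to -62, beside -136 to -131, and 1 *EGR2* window held it at -55 to -50. *JUN* had the 8-base form TGACNTCA at bases -67 to -60, where an A stands for N, and *JUND* had it with a G, which also holds the core TGACGT. This form was in 7.72% of windows. CArG boxes, in 1.29% of windows, were found in *EGR1*, at bases -105 to -96 and -83 to -74, and in 1 of the 3 *EGR2* windows. The window of *FOS* held none, but bases more than 250 before its start were not searched. The AP-1 site was searched as TGANTCA with any base at N, which is wider than the site itself and was in 7.71% of windows. Among these genes it was in the window of *FOSL2* alone, as TGACTCA at bases 4 to 10. The EGR site GCGNGGGCG, in 9.43% of windows, was in windows of *EGR1* and *EGR2*. None of these letters stood in the windows of *JUNB* and *IER2*, which says only that they are not in these 300 bases.

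**Figure D1:**
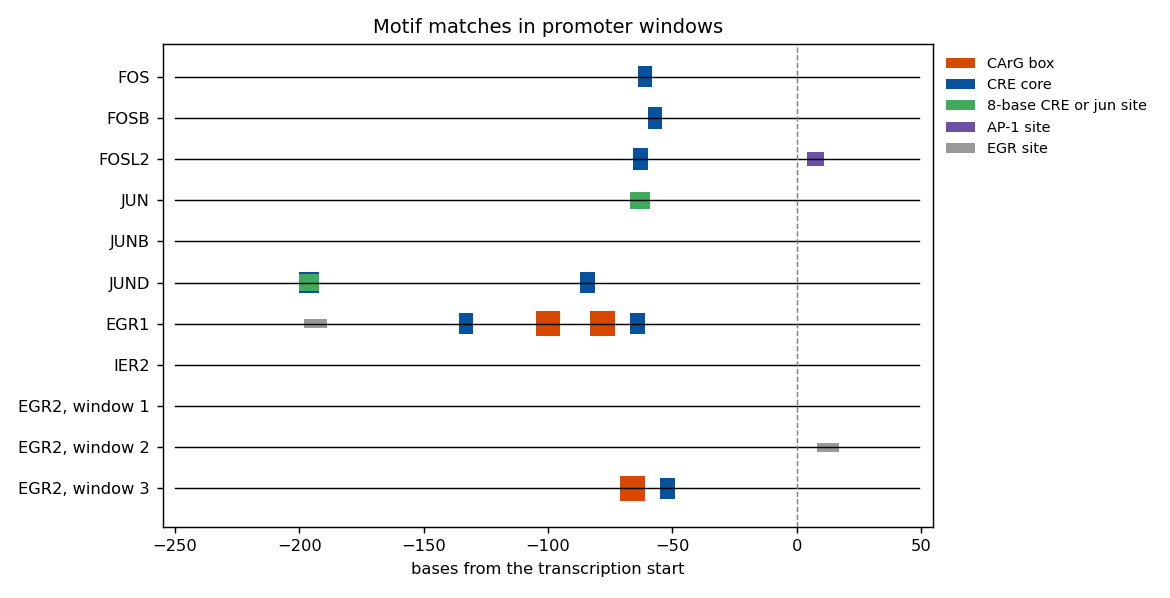
Position of motif matches in the promoter windows of 9 genes, in bases from the RefSeq start (dashed line at 0), with 1 line per window and 3 windows for *EGR2*. A core of the cAMP response element lies between bases -67 and -50 in *FOS*, *FOSB*, *FOSL2*, *EGR1* and 1 window of *EGR2*, and CArG boxes appear in *EGR1* and *EGR2*.

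Most of these genes were higher 72 h after knockdown of either remodeller. In *SMARCA4* knockdown 8 of the 10 rose against the control, where 45.1% of all genes tested were called and 22.8% were called higher. *FOSL1* was not called there and *EGR2* was not tested. In *SMARCA1* knockdown 9 of the 10 rose, where 46.8% of genes were called and 23.8% were called higher. Both comparisons use the same 2 control libraries, so a low value in a control enters both. *FOSL1* passed the expression filter (0.352 CPM in at least 2 libraries) through knockdown libraries only, with neither control library reaching it, and so had to be higher there. For each of the other 8 genes every one of the 8 knockdown libraries lay above both controls, which was so for 19.6% of genes tested.

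**Figure D2:**
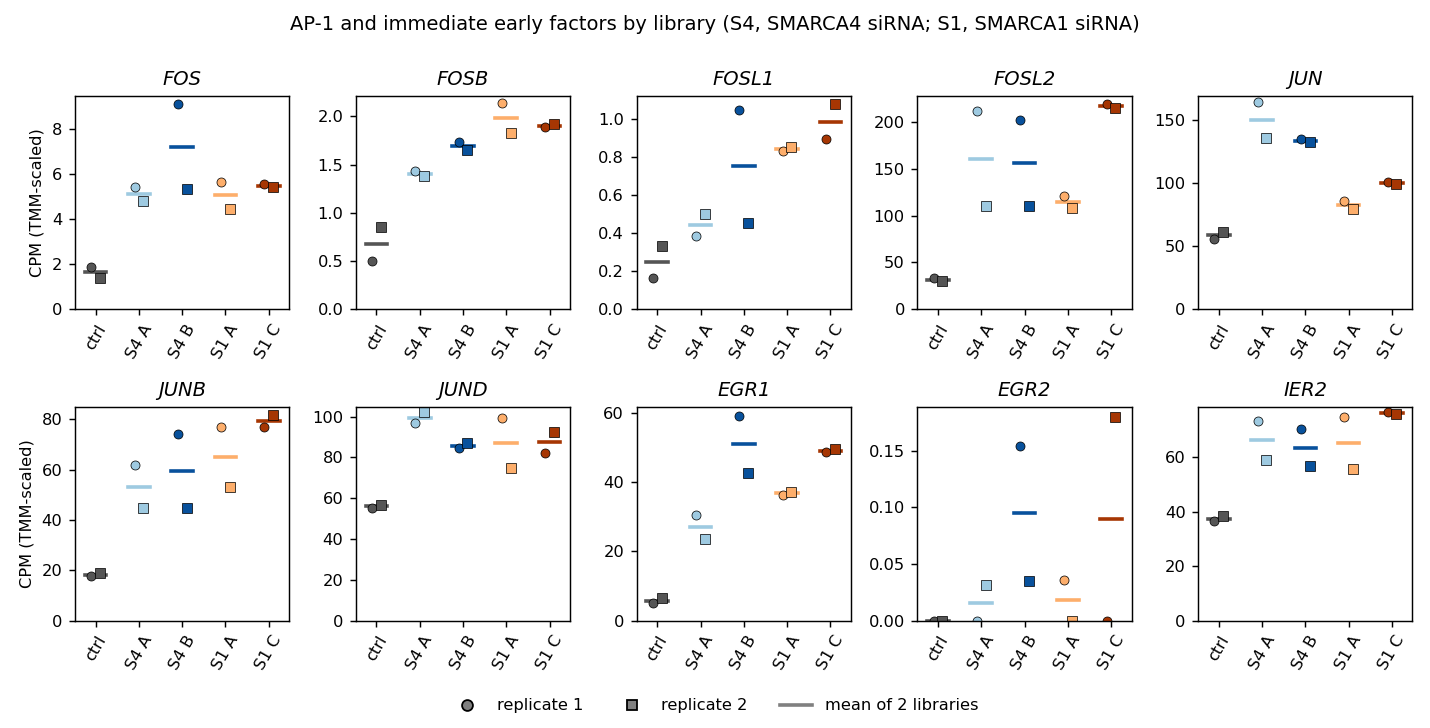
TMM-scaled CPM of the 10 genes in each of the 10 libraries (S4, *SMARCA4* siRNA; S1, *SMARCA1* siRNA; circles, replicate 1; squares, replicate 2; lines, means of 2 libraries), each panel with its own axis from 0. Knockdown libraries lie above both controls for every gene but *EGR2*, and *JUN* is the gene whose *SMARCA4* libraries all lie above its *SMARCA1* libraries.

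Of the FOS family, *FOSL2* (FRA-2, chromosome 2, 28392448 to 28417317, plus strand, GRCh38) was the most abundant and rose the most. It was at 33.0 and 30.3 CPM in the controls, at 211 and 110 CPM with *SMARCA4* siRNA A, at 201 and 111 CPM with *SMARCA4* siRNA B, at 121 and 108 CPM with *SMARCA1* siRNA A and at 218 and 214 CPM with *SMARCA1* siRNA C. Knockdown and control values did not overlap, and within the knockdowns the libraries fell into a group at 108 to 121 CPM and a group at 201 to 218 CPM. In *SMARCA4* knockdown replicate 1 of each siRNA was in the upper group and replicate 2 in the lower, 1.92 and 1.82 times apart. In *SMARCA1* knockdown the siRNAs themselves were in different groups. The fitted change was 5-fold in *SMARCA4* knockdown (log2 fold change 2.32 ± 0.30, adjusted p = 0.000201). Here and below, log2 fold changes stand with their standard error after ±, and each adjusted p comes from the quasi-likelihood test of edgeR, corrected by Benjamini-Hochberg over all genes tested. After *SMARCA1* knockdown *FOSL2* was 4.97-fold higher (2.31 ± 0.30, adjusted p = 0.000261).

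*FOS* itself (chromosome 14, 75278826 to 75282230, plus strand) was low in the controls, at 1.88 and 1.41 CPM from 45 and 38 counts. With *SMARCA4* siRNAs it was at 5.41 and 4.81 CPM (siRNA A) and at 9.09 and 5.33 CPM (siRNA B), and with *SMARCA1* siRNAs at 5.64 and 4.47 CPM (siRNA A) and at 5.54 and 5.42 CPM (siRNA C). All knockdown libraries were thus above the controls, and replicate 1 of *SMARCA4* siRNA B stood above the rest. *FOS* rose on the log2 scale by 1.89 ± 0.26 after *SMARCA4* knockdown (adjusted p = 0.000307) and by 1.68 ± 0.26 (adjusted p = 0.000682) in *SMARCA1* knockdown.

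*FOSB* (chromosome 19, 45467995 to 45475179, plus strand) rested on 12 and 23 counts in the controls, or 0.502 and 0.855 CPM. It lay between 1.38 and 1.73 CPM over the *SMARCA4* libraries and between 1.83 and 2.13 CPM over the *SMARCA1* libraries. Both ranges lay above the controls, and the log2 fold changes against the control were 1.17 ± 0.26 (adjusted p = 0.00468) and 1.5 ± 0.26 (adjusted p = 0.00117). The call in *SMARCA4* knockdown was lost when replicate 1 of the control, the lower of the pair, was left out (0.89, adjusted p = 0.0552).

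*FOSL1* (FRA-1, chromosome 11, 65892049 to 65900573, minus strand) was near the limit of detection in the controls, with 4 and 9 counts or 0.167 and 0.334 CPM. It was at 0.384 and 0.503 CPM with *SMARCA4* siRNA A, at 1.05 and 0.456 CPM with *SMARCA4* siRNA B, and between 0.832 and 1.08 CPM with the *SMARCA1* siRNAs. In *SMARCA4* knockdown its log2 fold change was 1.18 ± 0.48 (95% interval 0.12 to 2.24) and did not pass the threshold (adjusted p = 0.0675). It passed with no filter (adjusted p = 0.033), with siRNA B alone (adjusted p = 0.03) and when replicate 2 of siRNA B was left out (adjusted p = 0.0207). In *SMARCA1* knockdown it was 1.82 ± 0.46 (adjusted p = 0.00875), a call that was lost without replicate 1 of the control (1.46, adjusted p = 0.0847).

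In the JUN family *JUN* (chromosome 1, 58776845 to 58784048, minus strand), the founding member of AP-1, moved in the way that set the knockdowns apart. It was at 56.0 and 61.2 CPM in the controls, at 164 and 136 CPM with *SMARCA4* siRNA A and at 135 and 133 CPM with *SMARCA4* siRNA B. With *SMARCA1* siRNA A it was at 86.1 and 79.7 CPM and with siRNA C at 101 and 99.2 CPM. Controls, *SMARCA1* libraries and *SMARCA4* libraries thus formed 3 steps with no overlap. The log2 fold change was 1.27 ± 0.11 after *SMARCA4* knockdown (adjusted p = 2.13e-05) and 0.64 ± 0.10 (adjusted p = 0.000949) in *SMARCA1* knockdown, or 2.42-fold and 1.56-fold.

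*JUNB* (chromosome 19, 12791486 to 12793315, plus strand), which can oppose *JUN* at shared promoters, was at 17.9 and 18.8 CPM in the controls. It was at 61.7 and 44.7 CPM with *SMARCA4* siRNA A, at 74.3 and 44.7 CPM with *SMARCA4* siRNA B, at 77.1 and 53.0 CPM with *SMARCA1* siRNA A and at 76.8 and 81.8 CPM with *SMARCA1* siRNA C. Replicate 1 was the higher library for 3 of these 4 siRNAs, by 1.38 to 1.66 times, and the lowest knockdown library was still above both controls. *JUNB* rose on the log2 scale by 1.62 ± 0.24 after *SMARCA4* knockdown (adjusted p = 0.000433) and by 1.97 ± 0.24 (adjusted p = 0.000199) in *SMARCA1* knockdown. Its exon overlaps an exon of *HOOK2* on the opposite strand, and whether the counting used strand is not given in the sources used here. *HOOK2* was at 34.3 CPM in the controls, 36.8 CPM in *SMARCA4* knockdown and 26.4 CPM in *SMARCA1* knockdown, with log2 fold changes of 0.10 (adjusted p = 0.558) and -0.38 (adjusted p = 0.035).

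*JUND* (chromosome 19, 18279694 to 18281622, minus strand), which many cells keep at a steady level, had the smallest fitted change in *SMARCA4* knockdown and in *SMARCA1* knockdown one within error of that of *JUN*. It was at 55.4 and 56.9 CPM in the controls, between 84.4 and 102 CPM over the *SMARCA4* libraries and between 74.7 and 99.3 CPM over the *SMARCA1* libraries, again with no overlap. The log2 fold changes were 0.72 ± 0.12 (adjusted p = 0.00114) and 0.63 ± 0.12 (adjusted p = 0.00234).

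*EGR1* (chromosome 5, 138465479 to 138469303, plus strand), a zinc finger activator induced by serum and stress, had the largest fold change of the 9 genes tested in both knockdowns. It was at 4.93 and 6.61 CPM in the controls, at 30.6 and 23.5 CPM with *SMARCA4* siRNA A, at 59.0 and 42.7 CPM with *SMARCA4* siRNA B, at 36.3 and 37.3 CPM with *SMARCA1* siRNA A and at 48.6 and 49.4 CPM with *SMARCA1* siRNA C. The lowest knockdown library was above 3 times the higher control, and *SMARCA4* siRNA A gave the lowest values of the 4 siRNAs. *EGR1* rose 6.40-fold in *SMARCA4* knockdown (log2 fold change 2.68 ± 0.19, adjusted p = 9.24e-06) and 7.33-fold in *SMARCA1* knockdown (2.87 ± 0.19, adjusted p = 8.34e-06). Of all genes tested, 2.54% and 2.98% had a higher log2 fold change than *EGR1* in these comparisons.

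*EGR2*, a relative of *EGR1* known from myelination and T cell tolerance, was barely detected. It had no counts in either control, where 0 counts allow up to 0.126 and 0.113 CPM, and 0, 1, 5 and 1 counts in the *SMARCA4* libraries and 1, 0, 0 and 6 in the *SMARCA1* libraries. A difference was not detectable at this depth, and no fold change is given. Its gene model in the count tables runs from 62811996 to 62919900 on the minus strand of chromosome 10.

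*IER2* (chromosome 19, 13150411 to 13154911, plus strand), an immediate early nuclear protein, was at 36.4 and 38.2 CPM in the controls. It was at 73.3 and 59.1 CPM with *SMARCA4* siRNA A, at 70.2 and 56.7 CPM with *SMARCA4* siRNA B, at 74.6 and 55.6 CPM with *SMARCA1* siRNA A and at 76.5 and 75.8 CPM with *SMARCA1* siRNA C. Replicate 2 was the lower library with each siRNA, by little with *SMARCA1* siRNA C, and all knockdown libraries were above the controls. The log2 fold changes were 0.80 ± 0.15 (adjusted p = 0.00189) and 0.92 ± 0.15 (adjusted p = 0.000941).

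**Figure D3:**
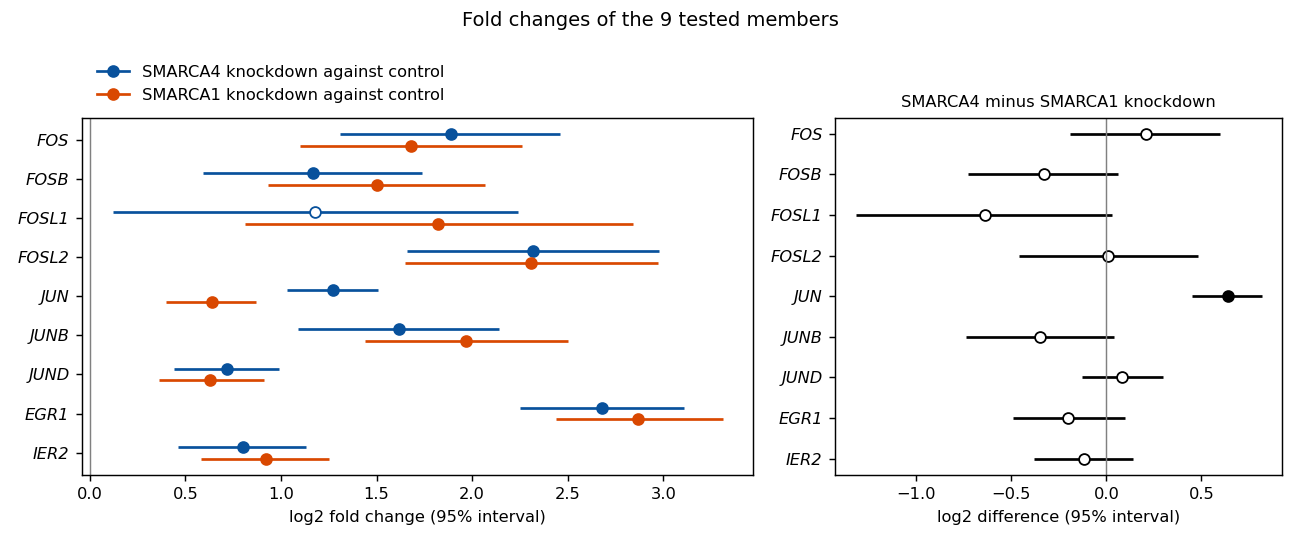
Log2 fold changes of the 9 tested genes against the control (left; blue, *SMARCA4* knockdown; orange, *SMARCA1* knockdown) and their log2 difference between the knockdowns (right), with 95% intervals as bars. Filled points have an adjusted p below 0.05, and the interval of *JUN* alone stands clear of 0 on the right, from 0.45 to 0.82.

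Levels were compared between genes per length, as TPM, that is counts per base of exon length scaled to 1000000 per library. In the controls the order was *JUND* (128 TPM), *JUN* (70.8 TPM), *IER2* (53.1 TPM), *JUNB* (43.8 TPM), *FOSL2* (19.3 TPM), *EGR1* (8.07 TPM) and *FOS* (2.26 TPM), and no pair of neighbours in this order overlapped. *FOSL1* (0.583 TPM) and *FOSB* (0.536 TPM) came last before *EGR2* and did overlap. In *SMARCA4* knockdown *JUND* (214 TPM), *JUN* (174 TPM), *JUNB* (136 TPM) and *FOSL2* (97.6 TPM) each overlapped the next in order, which after *FOSL2* was *IER2* (93.3 TPM). In *SMARCA1* knockdown *JUNB* (162 TPM) ranked above *JUN* (104 TPM), with no overlap between these neighbours. *EGR1* was at 55 and 56.5 TPM in the knockdowns, below *IER2* and above *FOS* without overlap. *FOS* has an annotated exon length of 3186 bases that includes retained introns, which lowers its TPM.

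Summed per length, the FOS family was higher than in the controls by a larger factor than the JUN family. The FOS family was at 22.7 ± 1.02 TPM in the controls (SD, n = 2), 109 ± 33.6 TPM in *SMARCA4* knockdown and 105 ± 32.2 TPM in *SMARCA1* knockdown (SD, n = 4 each). *FOSL2* made up 85.1% of that sum in the controls, 89.3% in *SMARCA4* knockdown and 89.6% in *SMARCA1* knockdown, so the spread within the knockdowns is largely that of *FOSL2*. The JUN family was at 242 ± 9.47 TPM in the controls (SD, n = 2), 524 ± 30.8 TPM in *SMARCA4* knockdown and 454 ± 40.6 TPM in *SMARCA1* knockdown (SD, n = 4 each). *JUND* went from 52.7% of the JUN sum in the controls to 40.9% and 41.2% in the knockdowns while its own level rose. *JUNB* went from 18.1% to 25.9% in *SMARCA4* knockdown and 35.7% in *SMARCA1* knockdown, and *JUN* from 29.2% to 33.2% and 23.1%. The ratio of JUN family to FOS family was 10 and 11.3 in the controls, between 3.82 and 6.62 in the *SMARCA4* libraries and between 3.40 and 6.02 in the *SMARCA1* libraries, with the controls above every knockdown library. These shares and ratios are descriptions of RNA and were not tested.

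**Figure D4:**
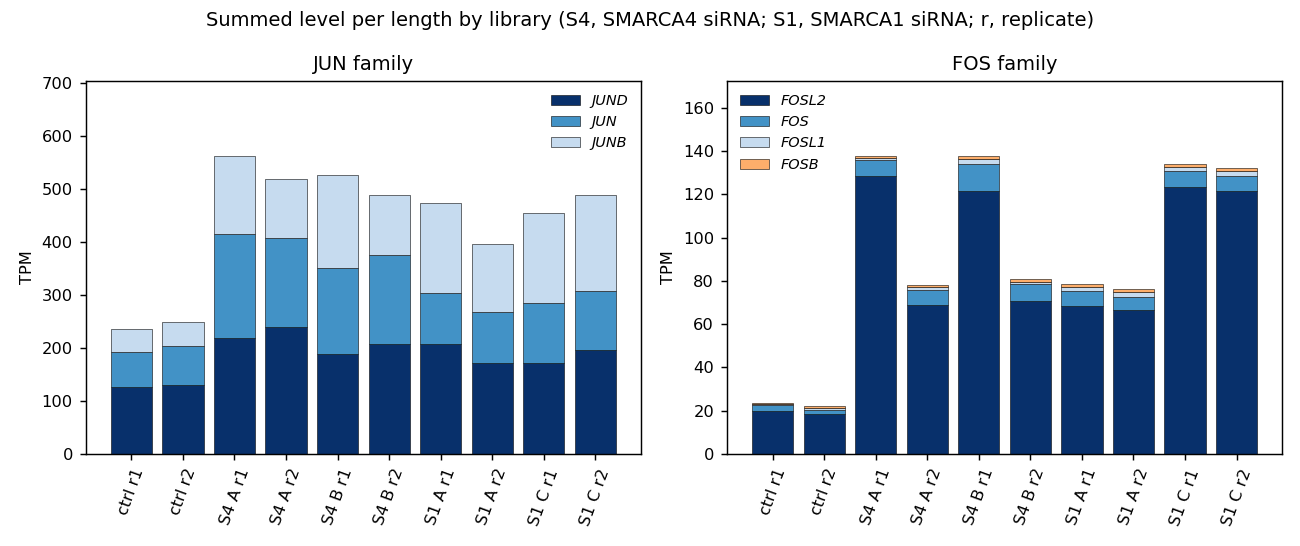
Summed TPM of the JUN family (left) and the FOS family (right) in each library, stacked by gene (S4, *SMARCA4* siRNA; S1, *SMARCA1* siRNA; r, replicate). The JUN sum is between 235 and 249 TPM in the controls, and *FOSL2* fills at least 84.5% of the FOS sum in every library.

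Compared with each other directly, the knockdowns differed in 1 of the 9 genes tested, where 35.4% of all genes were called. *JUN* was higher in *SMARCA4* knockdown by a log2 difference of 0.64 ± 0.08 (95% interval 0.45 to 0.82, adjusted p = 0.000446), and its 4 *SMARCA4* libraries (133 to 164 CPM) lay above its 4 *SMARCA1* libraries (79.7 to 101 CPM), as was so for 13% of genes tested. It kept this call under all 17 alternatives run. For *FOSL2* the difference was 0.01 with a 95% interval of -0.46 to 0.48 (adjusted p = 0.979), for *EGR1* -0.20 with -0.49 to 0.10 (adjusted p = 0.266) and for *FOS* 0.21 with -0.19 to 0.60 (adjusted p = 0.389). These intervals leave room for differences of either sign. *JUND* differed by 0.08 (-0.13 to 0.30, adjusted p = 0.53) and *IER2* by -0.12 (-0.38 to 0.14, adjusted p = 0.449).

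A lean towards *SMARCA1* knockdown that did not pass was seen in *JUNB* (-0.35, 95% interval -0.74 to 0.04, adjusted p = 0.143), *FOSB* (-0.33, -0.73 to 0.06, adjusted p = 0.169) and *FOSL1* (-0.64, -1.32 to 0.03, adjusted p = 0.126). *JUNB* was called without replicate 1 of *SMARCA4* siRNA B (-0.54, adjusted p = 0.0296), without replicate 2 of *SMARCA1* siRNA A (-0.47, adjusted p = 0.0374) and with no filter on low counts (-0.33, adjusted p = 0.0125). *FOSL1* was called without replicate 1 of *SMARCA4* siRNA B (-0.99, adjusted p = 0.0366), and *JUND* without replicate 1 of *SMARCA1* siRNA A (0.20, adjusted p = 0.0421).

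Taken one siRNA at a time, the rises were seen with each reagent. Against the control, *SMARCA4* siRNA A called 8 of the 9 tested genes (33.2% of all genes called), siRNA B 9 (45%), *SMARCA1* siRNA A 9 (34.8%) and siRNA C 9 (45.3%). These comparisons share the controls too. Between the *SMARCA4* siRNAs, where 6.2% of genes were called, *EGR1* alone of the 9 was called. It was lower with siRNA A by a log2 difference of -0.91 ± 0.19 (adjusted p = 0.0231), with 30.6 and 23.5 CPM against 59.0 and 42.7 CPM. That call was lost when only these 4 libraries were fitted (-0.93, adjusted p = 0.0726), and without replicate 2 of *SMARCA4* siRNA A (-0.74, adjusted p = 0.164), replicate 1 of *SMARCA4* siRNA B (-0.68, adjusted p = 0.136) or replicate 2 of *SMARCA1* siRNA C (-0.91, adjusted p = 0.0544). The interferon list took 3.17% and 1.61% of counts with siRNA A and 4.19% and 3.65% with siRNA B, and its part in this difference was not tested.

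Between the *SMARCA1* siRNAs, 0 of the 9 genes passed edgeR's quasi-likelihood test, where 0.0118% of all genes were called. At an unadjusted p below 0.05 there were 3 of the 9, beside 17.1% of all genes, and DESeq2 called 1. That gene was *FOSL2*, at 121 and 108 CPM with siRNA A and 218 and 214 CPM with siRNA C, whose log2 difference was -0.92 ± 0.30 (95% interval -1.59 to -0.24, adjusted p = 0.181). DESeq2 gave the same difference an adjusted p of 0.0361, and edgeR without a filter on low counts called it too (-0.89, adjusted p = 1.64e-07). The interferon list was at 2.51% and 2.26% of counts with siRNA A and at 4.12% and 4.16% with siRNA C.

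Genes that share the regulation of AP-1 were counted on lists written out from general knowledge, with no gene on more than 1 list. The lists were chosen with earlier results of these data known, so their counts are a description. Of the other immediate early genes, 37 of 40 were tested, and 29 rose in each knockdown while 8 did not pass. Over all genes tested, the shares called higher and lower were 22.8% and 22.3% in *SMARCA4* knockdown and 23.8% and 23% in *SMARCA1* knockdown, and these stand beside every list below. The list's median log2 fold change was 1.07 in *SMARCA4* knockdown and 1.00 in *SMARCA1* knockdown, against a median of 0.00 over all genes in each. Genes that passed the filter without both control libraries, as *FOSL1* did, entered through the knockdown libraries where they were high, so a rise of theirs is a description. There were 3 on this list, and of the other 34 genes 29 and 28 rose. *KLF4*, a zinc finger factor of epithelial differentiation, was at 39.2 CPM in the controls, 208 CPM in *SMARCA4* knockdown and 206 CPM in *SMARCA1* knockdown (log2 fold changes 2.41 and 2.35, adjusted p = 5.44e-05 and 9.07e-05). *GADD45B*, a stress adaptor of the p38 and JNK pathways, went from 3.33 to 21.4 and 27.6 CPM (2.67 and 3.01, adjusted p = 0.000186 and 0.000138).

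Of 11 tested bZIP partners, which can pair with FOS or JUN proteins or compete for their sites, 8 rose in each knockdown and 3 did not pass (medians 0.68 and 0.88). *BATF* and *BATF2* are 2 of the 8 and passed the filter through the knockdown libraries, and of the other 9 genes 6 rose in each knockdown (medians 0.52 and 0.52), where 22.8% and 23.8% of all genes did. Without replicate 2 of the control the count in *SMARCA4* knockdown was 4. *BATF2*, a partner of JUN proteins that interferon induces, was at 0.235 CPM in the controls, 89.4 CPM in *SMARCA4* knockdown and 121 CPM in *SMARCA1* knockdown (log2 fold changes 8.23 and 8.73, adjusted p = 4.02e-05 and 4.88e-05). *BATF*, its relative from lymphocytes, went from 0.323 to 1.58 and 2.87 CPM (2.19 and 3.11, adjusted p = 0.00949 and 0.00118). Its call in *SMARCA4* knockdown was lost without replicate 2 of the control (1.69, adjusted p = 0.1) and with siRNA A alone (1.60, adjusted p = 0.0797).

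The kinases and SRF cofactors that carry signals to these genes were called about as often as all genes (45.1% and 46.8%). All 31 were tested, and in *SMARCA4* knockdown 8 rose, 6 fell and 17 did not pass (median 0.03), while in *SMARCA1* knockdown 9 rose, 6 fell and 16 did not pass (median 0.09). In *SMARCA4* knockdown the calls numbered 8 instead of 14 when either control library was left out. *ERBB2*, a receptor tyrosine kinase, went from 31.4 CPM in the controls to 67.5 and 81.1 CPM (log2 fold changes 1.08 and 1.37, adjusted p = 0.000354 and 0.000136). *MAPK7* (ERK5) went from 16.6 to 38.1 and 38.9 CPM (1.20 and 1.23, adjusted p = 6.69e-05 and 8.66e-05), while *MAP2K5*, the kinase that activates it, fell from 27.0 to 17.7 and 19.0 CPM (-0.64 and -0.51, adjusted p = 0.000771 and 0.00273).

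Of the 5 ribosomal S6 kinases on that list, which act downstream of ERK or p38, *RPS6KA1* (RSK1) rose from 48.1 to 75.7 and 92.3 CPM (0.64 and 0.94, adjusted p = 0.00367 and 0.000525), and it is named here after its values were seen. *RPS6KA2* and *RPS6KA4* did not pass in either knockdown. *RPS6KA3* (RSK2) went from 146 CPM in the controls to 84.4 CPM in *SMARCA4* knockdown (-0.79, adjusted p = 0.0153) and 69.8 CPM in *SMARCA1* knockdown (-1.06, adjusted p = 0.00332). Its call in *SMARCA4* knockdown was lost without replicate 1 (-0.66, adjusted p = 0.137) or replicate 2 (-0.84, adjusted p = 0.064) of the control, and without replicate 1 of siRNA A (-0.70, adjusted p = 0.0526) or of siRNA B (-0.66, adjusted p = 0.0558). *RPS6KA5* (MSK1), a kinase of CREB, fell from 17.5 to 8.84 CPM in *SMARCA1* knockdown (-0.99, adjusted p = 0.000891). In *SMARCA4* knockdown it was at 12.5 CPM (-0.49, adjusted p = 0.0307), a call lost under 8 alternatives, among them without replicate 1 (-0.37, adjusted p = 0.235) or replicate 2 (-0.53, adjusted p = 0.0968) of the control, replicate 1 of *SMARCA4* siRNA A (-0.40, adjusted p = 0.0985), replicate 1 (-0.49, adjusted p = 0.0607) or replicate 2 (-0.42, adjusted p = 0.0932) of *SMARCA4* siRNA B, or replicate 1 (-0.48, adjusted p = 0.0503) or replicate 2 (-0.48, adjusted p = 0.0528) of *SMARCA1* siRNA C.

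Feedback inhibitors of the ERK pathway and of EGR proteins were called at shares that lie near those of all genes in *SMARCA1* knockdown (46.8%) and above them in *SMARCA4* knockdown (45.1%). Of 19 tested, 8 rose, 3 fell and 8 did not pass in *SMARCA4* knockdown (median 0.39), and 6 rose, 2 fell and 11 did not pass in *SMARCA1* knockdown (median 0.12). The rises included *NAB2*, a corepressor of EGR1, from 18.4 CPM in the controls to 45.5 and 59.0 CPM (1.27 and 1.68, adjusted p = 0.000297 and 9.69e-05), and *DUSP5*, a nuclear phosphatase of ERK, from 3.05 to 8.61 and 25.1 CPM (1.5 and 3.02, adjusted p = 0.00525 and 0.000157). *DUSP10*, a phosphatase of p38 and JNK, rose from 2.41 to 7.09 and 6.69 CPM (1.54 and 1.47, adjusted p = 9.66e-05 and 0.000167). *DUSP4*, another nuclear phosphatase, fell from 9.05 to 4.33 and 3.97 CPM (-1.23 and -1.19, adjusted p = 0.000995 and 0.00121), a call that *SMARCA4* siRNA A alone did not give (-0.51, adjusted p = 0.124). *DUSP9* fell in *SMARCA4* knockdown from 2.66 to 0.911 CPM (-1.57, adjusted p = 0.0012) and was at 2.24 CPM in *SMARCA1* knockdown (-0.25, adjusted p = 0.443). *SPRY1*, a Sprouty inhibitor, fell in *SMARCA1* knockdown from 14.5 to 7.49 CPM (-0.96, adjusted p = 0.000443) and was at 11.8 CPM in *SMARCA4* knockdown (-0.30, adjusted p = 0.0972).

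Of 26 tested AP-1 targets, genes with known AP-1 sites that other factors control too, 15 rose, 3 fell and 8 did not pass in *SMARCA4* knockdown (median 0.88), and 13 rose, 1 fell and 12 did not pass in *SMARCA1* knockdown (median 0.99). Of these, 9 genes passed the filter through the knockdown libraries, *MMP13* among them, and held 5 and 4 of the rises. Of the other 17, 10 rose and 3 fell in *SMARCA4* knockdown (median 0.62) and 9 rose and 1 fell in *SMARCA1* knockdown (median 0.55), where 22.8% and 23.8% of all genes rose. Fewer were called without replicate 1 of the control (7 and 8) and, in *SMARCA4* knockdown, without replicate 2 (11). *HMOX1*, haem oxygenase, had the largest rise in *SMARCA4* knockdown among targets with a mean of at least 1 CPM, from 2.14 CPM in the controls to 73.1 CPM (4.90, adjusted p = 4.01e-05), and reached 18.8 CPM in *SMARCA1* knockdown (3.04, adjusted p = 0.000537). *MMP13*, a collagenase, had 0 and 4 counts in the controls, 19 to 75 in the *SMARCA4* libraries and 74 to 152 in the *SMARCA1* libraries. Its summed counts over summed library totals, without TMM scaling, were 16.8 times (95% interval 6.45 to 62.5) and 46.8 times (18.2 to 173) those of the controls. The exact Clopper-Pearson intervals cover counting error only. It was tested through its knockdown libraries alone, so that its calls (adjusted p = 0.00549 and 0.000593, and 0.0574 in *SMARCA4* knockdown without replicate 2 of the control) are a description.

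The targets called lower were *CD44*, *IL11* and *VEGFA* in *SMARCA4* knockdown and *FN1* in *SMARCA1* knockdown. In *SMARCA1* knockdown *IL11* was at 1.55 CPM and just missed the threshold (-0.52, adjusted p = 0.0505). There *CD44* was at 12.3 CPM (0.11, adjusted p = 0.644) and *VEGFA* at 49 CPM (-0.06, adjusted p = 0.767). In *SMARCA4* knockdown *FN1* was at 18.5 CPM (0.1, adjusted p = 0.735). *CD44*, a hyaluronan receptor, went from 10.7 to 6.35 CPM in *SMARCA4* knockdown (-0.76, adjusted p = 0.00567), a call lost without replicate 1 of the control (-0.72, adjusted p = 0.0531). *FN1*, fibronectin, went from 17.2 to 9.81 CPM in *SMARCA1* knockdown (-0.81, adjusted p = 0.0128), a call also lost without that library (-0.46, adjusted p = 0.224). *VEGFA*, an angiogenic growth factor named here after its values were seen, went from 49.2 to 32.4 CPM (-0.64, adjusted p = 0.00924), and its call was lost without replicate 1 of the control (-0.54, adjusted p = 0.0972) and with siRNA A alone (-0.33, adjusted p = 0.208). *IL11*, a cytokine, went from 2.22 to 1.41 CPM in *SMARCA4* knockdown (-0.66, adjusted p = 0.0191), and its call was lost in DESeq2 (adjusted p = 0.0772), with siRNA A alone (-0.56, adjusted p = 0.0857) and without replicate 1 (-0.65, adjusted p = 0.102) or replicate 2 (-0.60, adjusted p = 0.129) of the control, replicate 2 of siRNA A (-0.57, adjusted p = 0.0606) or replicate 1 of siRNA B (-0.55, adjusted p = 0.0773).

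**Figure D5:**
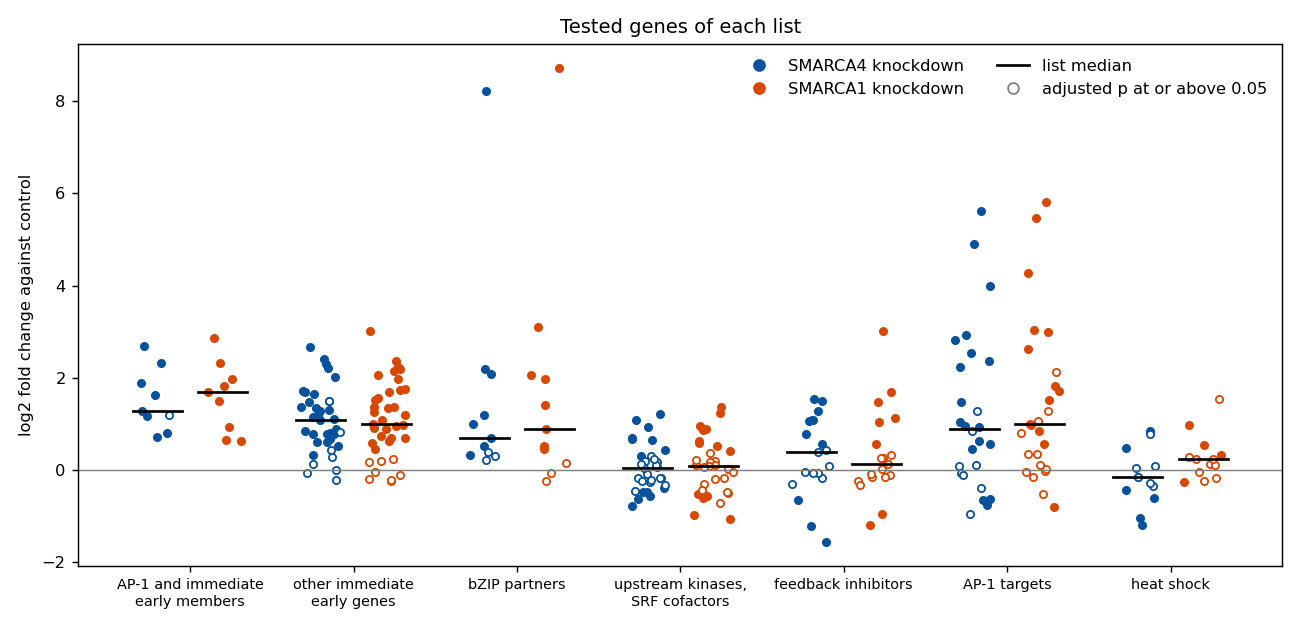
Log2 fold change against the control of each tested gene of the lists (blue, *SMARCA4* knockdown; orange, *SMARCA1* knockdown; open points, adjusted p at or above 0.05; bars, list medians). The 9 tested AP-1 and immediate early factors of the first list lie above 0, with medians of 1.27 and 1.68, while kinases and heat shock genes scatter about 0.

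Heat shock genes were counted beside these because cell handling can induce them together with immediate early genes. Whether handling moved any of these genes was not tested. The share of heat shock genes called was near or below the 45.1% and 46.8% of all genes. Of 13 tested, 2 rose, 4 fell and 7 did not pass in *SMARCA4* knockdown (median -0.16), and 3 rose, 1 fell and 9 did not pass in *SMARCA1* knockdown (median 0.23). The list of 14 summed to 9766 and 10007.9 CPM in the controls, to 7445 to 8720 CPM in the *SMARCA4* libraries and to 9340 to 10954 CPM in the *SMARCA1* libraries.

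The 3 genes with the widest range of group means were *EGR1*, *FOSL2* and *JUNB*, and for each the 3 most similar patterns over the 10 libraries were looked up among 13645 genes by Pearson's r of log2 CPM. For *EGR1* they were *USP18* (r = 0.994), which removes ISG15 from proteins, *CCL5* (r = 0.993), a chemokine with 0 and 1 counts in the controls, and *IFI35* (r = 0.992), an interferon-induced protein. For *FOSL2* they were *ASPHD2* (r = 0.995), *GCC1* (r = 0.993), a Golgi protein, and *BIRC3* (r = 0.993), a ubiquitin ligase of NF-kappaB signalling. For *JUNB* they were *KRT8* (r = 0.996), a keratin of luminal epithelium, *DLL4* (r = 0.995), a Notch ligand, and *LASP1* (r = 0.994), an actin-binding protein. These values describe libraries that share their controls and a step between control and knockdown, and between 905 and 989 genes had an r over 0.9 with each of the 3.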

How the data were processed

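RNA-seq of polyadenylated RNA (directional kit, paired-end reads) was analysed for 10 VCaP libraries in 5 groups, taken from the sample labels. The authors aligned reads to GRCh38 with HISAT2 2.1.0 and counted them per gene with featureCounts 1.5.2 on GENCODE annotations, versions as in the submitters' processing notes. What the authors deposited are raw counts of 59386 genes, beside positions and an exon length in bases per gene. The GENCODE release and the strand setting are not given in the sources used here.

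In R 4.3.3, edgeR 4.0.16 kept 16899 genes by filterByExpr (minimum count 10, minimum total 15), applied TMM scaling and ran the quasi-likelihood test in 1 model of the 5 groups. Both siRNA groups of a knockdown weighed equally in its contrast. Genes with a Benjamini-Hochberg adjusted p below 0.05 over all genes tested were called. Standard errors follow from the size of the log2 fold change over the root of its F statistic. The fit was tested on simulated data. Count depth sets the precision: 3 counts equal at most 0.126 CPM.

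The members and lists were chosen with earlier results of these data known. Named from the lists are, in each knockdown, up to 2 rises and 2 falls per list, the largest among called genes with a mean of at least 1 CPM. *HOOK2*, *LYZ*, *CD14*, *VEGFA* and *RPS6KA1* were chosen after their values were seen. Motif positions come from RefSeq windows of GRCh38.p14, where 9 of the 10 genes were found, all but *FOSL1*. Replicate numbers were checked for pairing and were not taken to pair the libraries. Libraries of a group differed by more than sampling noise (chi-square per gene between 3.57 and 54.5), so none was treated as a library deposited more than once.

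Alternatives were DESeq2 1.42.0, size factors by RLE, library totals without TMM, no filter, a filter of 1 CPM in 2 libraries, a replicate block, fits of the compared groups only, each siRNA alone, TMM-scaled CPM per kb in place of TPM, and each library left out in turn. Data of other assays were not analysed here.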

Additional observations from a re-analysis of the deposited data

Results flagged for a closer look

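In 3 of 18 groups of 4 libraries examined (9 genes in 2 knockdowns), 1 library lay far from the others, with a gap to its neighbour above Dixon's 95% critical value as a share of the group's range. Chance would give this in about 1 in 20 groups if the 4 libraries were draws from 1 normal distribution. Each group here joins 2 siRNAs, and the genes share the same libraries, so no expected count for these 18 is given. *FOS* in *SMARCA4* knockdown had a gap of 0.859 of its range, from 9.09 CPM in replicate 1 of siRNA B to 5.41 CPM. *JUN* in *SMARCA4* knockdown had a gap of 0.895, from 164 CPM in replicate 1 of siRNA A to 136 CPM. *IER2* in *SMARCA1* knockdown had a gap of 0.910, with 55.6 CPM in replicate 2 of siRNA A below 74.6 CPM. All 3 genes kept their calls against the control with any library left out.

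The knockdowns differed in *JUN*, by a log2 difference of 0.64 between *SMARCA4* and *SMARCA1* knockdown, tested directly (adjusted p = 0.000446, edgeR's quasi-likelihood test). The *SMARCA4* siRNAs differed in *EGR1*, by a log2 difference of -0.91 of siRNA A from siRNA B (adjusted p = 0.0231, same test), and leaving out 3 of the libraries, 1 at a time, ended that call.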

How the results depend on the processing

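Every call of *FOS*, *FOSL2*, *JUN*, *JUNB*, *JUND*, *EGR1* and *IER2* against the control was kept under all 19 alternatives in each knockdown. *FOSB* and *FOSL1* lost or gained calls as given above. When single libraries were left out, the genes called numbered between 7 and 9 of the 9 tested in *SMARCA4* knockdown (8 with all libraries) and between 8 and 9 in *SMARCA1* knockdown (9). Between the knockdowns they numbered between 1 and 3 (1 with all libraries), and 2 with no filter on low counts. Between the *SMARCA4* siRNAs they numbered between 0 and 1 (1), and 0 when only these libraries were fitted. Between the *SMARCA1* siRNAs the count was 1 with DESeq2 and 1 with no filter (0 in the main analysis). On the lists, leaving out a library gave between 4 and 11 calls of bZIP partners (8), between 8 and 21 of kinases and SRF cofactors (14) and between 7 and 18 of AP-1 targets (18) in *SMARCA4* knockdown, and between 8 and 15 of AP-1 targets (14) in *SMARCA1* knockdown. Fewer samples enter such fits, and some of these counts were higher than with all libraries. In *SMARCA4* knockdown the highest counts of bZIP partners and kinases came without a library of *SMARCA1* siRNA A. That library enters the model but not this comparison. The cause of these changes was not tested.

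Over all genes, the alternatives called between 4413 and 9183 genes in *SMARCA4* knockdown (7616), between 4430 and 9557 in *SMARCA1* knockdown (7911), between 3683 and 8072 between the knockdowns (5982), between 48 and 2907 between the *SMARCA4* siRNAs (1048) and between 0 and 1927 between the *SMARCA1* siRNAs (2). Signs turned only for differences that were not called. With libraries left out, the difference between the knockdowns ranged from -0.25 to 0.21 for *FOSL2*, from -0.00 to 0.20 for *JUND* and from -0.21 to 0.00 for *IER2*. Between the *SMARCA4* siRNAs it ranged from -0.50 to 0.52 for *FOSL2*, from -0.48 to 0.23 for *JUNB* and from -0.10 to 0.20 for *IER2*. Between the *SMARCA1* siRNAs it ranged from -0.28 to 0.07 for *FOS*, from -0.04 to 0.19 for *FOSB* and from -0.21 to 0.21 for *JUND*, which was at -0.00 in the main analysis. For *JUND* it was also 0.07 with library totals, 0.02 with no filter, 0.03 with the filter of 1 CPM and 0.02 when only these libraries were fitted.

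Replicate numbers were not taken to pair the libraries, since only 3 of 10 pairs of groups had a correlation of replicate differences over 0.1. These 3 were the pairs among *SMARCA4* siRNA A, *SMARCA4* siRNA B and *SMARCA1* siRNA A (0.36, 0.27 and 0.13), and the other 7 lay between -0.10 and 0.05. With the replicate number as a block the genes called numbered 8, 9, 1, 1 and 0 in the 5 comparisons, as without it, and the *FOSL2* difference between the knockdowns turned to -0.05. Over all genes the block gave 16 calls instead of 2 between the *SMARCA1* siRNAs. Depth limits *EGR2*, *FOSL1* and *FOSB*, which had at most 23 counts in a control library.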

Other observations

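Among the 8 knockdown libraries the genes did not rank the libraries alike. By Pearson's r of log2 CPM over these 8 libraries, which share a cell line and fall into 4 siRNA pairs, *JUNB* and *IER2* ran together (r = 0.90), as did *FOSL2* and *IER2* (r = 0.81). *JUN* ran against *FOSB* (r = -0.83) and *FOSL1* (r = -0.67), while *JUND* and *EGR1* had an r of -0.56. Over all 10 libraries, where the step from control to knockdown enters, r was 0.98 for *JUNB* and *IER2* and 0.57 for *JUN* and *FOSB*.

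Fibroblast markers summed to between 24.0 and 27.9 CPM in the controls, between 18.5 and 35.4 CPM in *SMARCA4* knockdown and between 37.4 and 55.3 CPM in *SMARCA1* knockdown, and endothelial markers stayed between 1.62 and 3.26 CPM in every library. Mitochondrial transcripts took between 1.28% and 1.99% of counts.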
